A study of Mus musculus with 6 samples.

Results

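CCR2 is the chemokine receptor that draws classical monocytes out of the bone marrow and into inflamed tissue. Its gene, Ccr2, and those of its ligands Ccl2, Ccl7, Ccl8 and Ccl12 were followed as 5 rows, chosen by symbol, of a table of 24047 rows of raw gene counts. All samples came from wild-type mice of the strain labelled C5/Bl6, aged 8 to 10 weeks, with nephrotoxic nephritis, an antibody-driven injury of the glomeruli, and killed on day 13. The kidney group held 3 libraries (replicates 7, 8 and 22) of cells named double_pos, enriched with a monocyte isolation kit and sorted. The other group held 3 libraries (replicates 2, 24 and 26) of cells named double from spleen and bone marrow, for which no isolation is described. The series drew on 10 mice in all, and the labels neither name the sorted markers nor say whether replicates were separate animals or pools. P-values therefore measure only the spread between these libraries, which may be technical. No library came from healthy mice, so nephritis is common to both groups, and tissue and handling cannot be told apart.

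CCR2 belongs to the G protein-coupled receptors, signals mainly through inhibitory G proteins, and is carried at high levels by classical monocytes. CCL2 (also called MCP-1 or JE), CCL7 (MCP-3), CCL8 (MCP-2) and CCL12 (MCP-5) are small secreted proteins of the CC chemokine family, named for a pair of adjacent cysteines near the start of the mature chain. Monocytes, macrophages, endothelium, mesangial and tubular cells can all make CCL2 when inflamed, and in mice lacking either CCL2 or CCL7 fewer classical monocytes leave the marrow. CCL12 is a CCR2 ligand described in mouse, and mouse CCL8 is also known as an agonist of CCR8.

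The 4 ligand genes are neighbours on chromosome 11 and alike in sequence, which bears on whether reads of one could be counted for another. Below are 60 coding bases of each from GENCODE M21 (build GRCm38, plus strand), with the adjacent cysteine codons in capitals. They start at coding base 76 in Ccl2, 73 in Ccl7 and Ccl12, and 70 in Ccl8.
Ccl2: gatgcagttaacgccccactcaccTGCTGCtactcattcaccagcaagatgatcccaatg
Ccl7: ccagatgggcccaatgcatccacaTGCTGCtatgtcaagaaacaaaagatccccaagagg
Ccl12: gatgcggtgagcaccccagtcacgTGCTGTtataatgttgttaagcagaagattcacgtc
Ccl8: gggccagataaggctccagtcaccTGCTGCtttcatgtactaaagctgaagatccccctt
The coding sequence ran to 148 codons in Ccl2, 97 in Ccl7, 104 in Ccl12 and 97 in Ccl8. In pairwise global alignments, between 65.5% (Ccl7 and Ccl8) and 73.3% (Ccl2 and Ccl8) of the aligned coding bases were identical. The longest exact run shared by the transcripts of any 2 of these 4 genes was 23 bases, between Ccl2 and Ccl7. Ccl11, which lies between Ccl7 and Ccl12, shared runs of at most 21 bases with them and had no count in any of the 6 libraries.

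Total counts ran from 3492391 (kidney replicate 22) to 7938223 (kidney replicate 7) in kidney and from 7311991 to 9727489 in spleen and marrow, and a floor of 3 counts in 1 library corresponded to between 0.322 and 0.881 CPM. CPM is the unit of counts scaled for depth, here after TMM, a correction for library composition. Kidney replicate 22 stood apart from kidney replicates 7 and 8, correlating across genes with them at 0.840 and 0.838 (Pearson, log2 CPM) against 0.938 between the other pair. Spleen and marrow replicates 24 and 26 were much closer to each other (chi-square over degrees of freedom 2.96) than any other pair within a group (23.7 to 65.3), and were counted as 2 libraries. Classical monocyte markers were present in both groups, with the whole list summing to between 7138 and 11470 CPM in kidney and between 15930 and 23440 CPM in spleen and marrow. Neutrophil and precursor markers summed higher than that list in all 3 spleen and marrow libraries and in kidney replicate 22. The most abundant of them there were S100a8 and S100a9. These had 9919 to 12055 and 6804 to 8548 CPM in spleen and marrow, and 16137 and 13363 CPM in kidney replicate 22. Which cells carried them was not tested, so the sums do not give shares of cell types. Tissue macrophage markers were also present, and 8 of 9 rose in kidney, beside 7.83% of all tested genes called higher. Among the 8, Mertk passed the filter on low counts only through the kidney libraries, so a fall of it could not have been seen.

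Ccl2, Ccl7, Ccl8 and Ccl12 were all higher in the kidney libraries than in those of spleen and marrow, while Ccr2 did not pass the test. Of all 10626 genes tested with edgeR's quasi-likelihood test, 7.83% were called higher in kidney at a Benjamini-Hochberg adjusted p under 0.05, and 5.90% lower. The log2 fold changes of the 5 genes had a median of 7.31, or 5.73 with Ccl8 at its lower bound, beside a median of 0.05 over all tested genes. All 5 passed the filter on low counts, Ccl7, Ccl8 and Ccl12 only through the kidney libraries. Calls higher in kidney made up 57.0% of all calls, but 46.8% with limma-voom and 42.7% with limma-trend on log2(FPKM + 1), while the same 4 ligands were called higher in each of these fits.

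**Figure D1:**
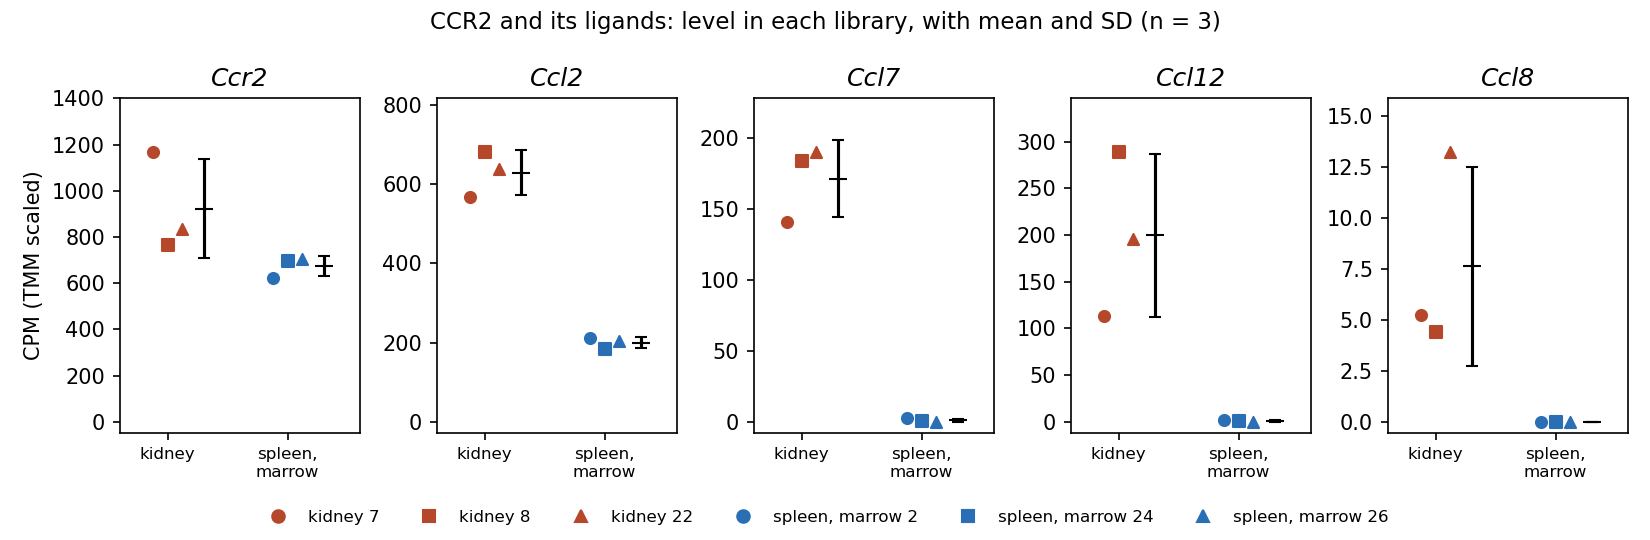
Level of each gene in CPM (vertical axis, linear and different for each panel) in the 3 kidney libraries (red) and the 3 spleen and marrow libraries (blue), with the mean and SD in black. Ccr2 lay at 764 to 1168 CPM in kidney and 623 to 705 CPM in spleen and marrow, whereas Ccl7, Ccl12 and Ccl8 lay near 0 in spleen and marrow.

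The receptor gene was abundant in both groups. Ccr2 had 1168, 764 and 836 CPM in kidney replicates 7, 8 and 22, against 623, 697 and 705 CPM in spleen and marrow replicates 2, 24 and 26. Each kidney library lay above each spleen and marrow library, as for 19.2% of tested genes (18.8% lay the other way round), and kidney replicate 7 stood highest. The log2 fold change was 0.45 ± 0.18 (SE), with an unadjusted 95% interval of 0.04 to 0.86 and an edgeR adjusted p of 0.141. That interval corresponds to between 1.03-fold and 1.81-fold. Without kidney replicate 7 the log2 fold change was 0.26. On the deposited FPKM scale, which is scaled for depth as well as transcript length, the groups overlapped. There Ccr2 stood at 116, 77.1 and 58.9 FPKM in kidney replicates 7, 8 and 22, and at 61.7, 70.9 and 70.3 FPKM in spleen and marrow replicates 2, 24 and 26. Kidney replicate 22 thus lay above every spleen and marrow library in CPM but below each in FPKM. The cause of this shift was not tested.

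Some other markers of classical monocytes fell in kidney. Ly6c2, a gene of the Ly6C surface antigen, had 317, 752 and 810 CPM in kidney, against 5860, 5020 and 5356 CPM in spleen and marrow. In edgeR it fell by 3.11 ± 0.34 on the log2 scale (SE; adjusted p = 0.00149). Of 9 classical monocyte markers tested, 4 fell and 1, Cd14, rose, where 5.90% of all tested genes were called lower and 7.83% higher. Of 9 non-classical monocyte markers tested, 5 rose in edgeR, with a median log2 fold change of 1.28. Among the 5, Cd36 passed the filter on low counts only through the kidney libraries, so a fall of it could not have been seen. In bulk samples fewer cells of a type and less RNA per cell cannot be told apart.

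Ccl2 was the ligand expressed in both groups. It had 569, 681 and 637 CPM in kidney replicates 7, 8 and 22, against 212, 184 and 203 CPM in spleen and marrow replicates 2, 24 and 26. The groups lay far apart, and the libraries within each lay close together. The log2 fold change was 1.65 ± 0.13 (SE, 95% interval 1.35 to 1.96, edgeR adjusted p = 0.000634), or 3.15-fold.

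Ccl7 was found almost wholly in the kidney libraries. It had 140, 183 and 190 CPM in kidney replicates 7, 8 and 22, against 2.53, 0.547 and 0.107 CPM in spleen and marrow replicates 2, 24 and 26. Those spleen and marrow values rest on 22, 4 and 1 counts, so replicate 2 held most of the 27, against 3283 counts in kidney. The log2 fold change was 7.31 ± 0.68 (SE, edgeR adjusted p = 0.00102). Pooled over libraries, the ratio of kidney to spleen and marrow was 156 (95% exact binomial interval 107 to 237, covering counting error only). The log2 fold change was 9.04 without spleen and marrow replicate 2 and 6.72 without replicate 26.

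Ccl12 showed the same contrast with more spread within kidney. It had 114, 289 and 196 CPM in kidney replicates 7, 8 and 22, against 2.41, 0.547 and 0.107 CPM in spleen and marrow replicates 2, 24 and 26. Kidney replicate 8 held the most and kidney replicate 7 the least, and the spleen and marrow libraries held 21, 4 and 1 counts. The log2 fold change was 7.58 ± 0.76 (SE, edgeR adjusted p = 0.00114), and the pooled ratio was 193 (95% exact binomial interval 132 to 296). The log2 fold change was 9.26 without spleen and marrow replicate 2 and 6.996 without replicate 26.

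Ccl8 was the least abundant ligand. It had 5.21, 4.42 and 13.2 CPM in kidney replicates 7, 8 and 22 (44, 35 and 45 counts), against no count in any spleen and marrow library. Kidney replicate 22, the shallowest library, held the highest level. Computed from 3 counts over the whole spleen and marrow group, Ccl8 was at least 53.0-fold higher in kidney (edgeR adjusted p = 0.00796). The bound was 34.8, 37.7 and 33.5 without spleen and marrow replicate 2, 24 or 26, and 40.8 without kidney replicate 22. Its receptor gene Ccr8 had no count in kidney and 2 counts in spleen and marrow.

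The rise was unequal along the gene cluster. In the order of the genes on chromosome 11, Ccl2, Ccl7, Ccl12 and Ccl8 rose, while Ccl11 between Ccl7 and Ccl12 had no count and Ccl1, beyond Ccl8, had 0 CPM in every kidney library and 0.115 CPM in 1 of 3 spleen and marrow libraries. The next protein-coding genes outside the cluster, 1700071K01Rik and Tmem132e, stayed at or below 2.35 CPM in every library.

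**Figure D2:**
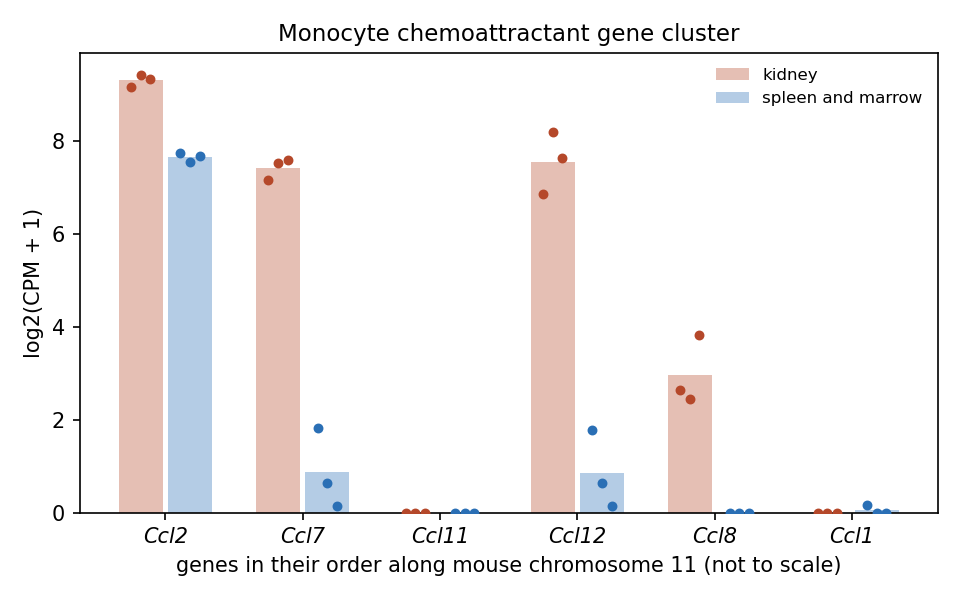
Expression as log2(CPM + 1) of the 6 chemokine genes in their order along chromosome 11, spaced evenly and not to scale, in kidney (red) and in spleen and marrow (blue). Bars are means of 3 libraries and points are single libraries, and Ccl11 and Ccl1 lie at or near 0 between and beside genes that rose.

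Sequence just before the transcription start was matched in RefSeq (build GRCm38.p6) for 3 of the 5 genes, Ccr2, Ccl12 and Ccl8. The 250 bases before the start are shown for Ccl12 and Ccl8, the 2 of these that rose from near 0 in spleen and marrow, with motif matches in capitals. Within kidney, replicate 8 held the most Ccl12 and the least Ccl8, but its Ccl8 level rests on 35 counts, against 44 in kidney replicate 7. Whether the 2 genes moved together within kidney was not tested. Ccl12 is chr11:82101595-82101844 and Ccl8 is chr11:82114935-82115184, both on the plus strand.
Ccl12: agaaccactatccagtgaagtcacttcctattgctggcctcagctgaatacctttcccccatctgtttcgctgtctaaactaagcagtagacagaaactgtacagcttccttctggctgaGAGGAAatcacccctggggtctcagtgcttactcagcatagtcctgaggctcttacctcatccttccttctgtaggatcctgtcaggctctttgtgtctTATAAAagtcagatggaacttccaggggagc
Ccl8: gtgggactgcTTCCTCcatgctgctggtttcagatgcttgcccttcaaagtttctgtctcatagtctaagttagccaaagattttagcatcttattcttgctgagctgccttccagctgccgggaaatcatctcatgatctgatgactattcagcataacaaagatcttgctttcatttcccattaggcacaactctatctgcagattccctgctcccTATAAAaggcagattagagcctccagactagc
The capitals mark TATAAA, the core of a TATA box, which began 31 bases before the start in Ccl12 and 32 bases before it in Ccl8, and GAGGAA, a core bound by ETS factors such as PU.1, present once in each (as TTCCTC, on the other strand, in Ccl8). On both strands, TATAAA was found in 12.4% and GAGGAA in 23.3% of 32851 windows of the same length. The AP-1 core TGANTCA, an NF-kB core and the STAT core TTCNNNGAA were searched likewise, with N for any base, and were found in neither window, nor was any of these 5 motifs in that of Ccr2. Over all windows these 3 motifs were present in 6.75%, 1.41% and 7.02%. The motifs do not overlap in the Ccl12 and Ccl8 windows.

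Levels of different genes were compared per length, in FPKM. In kidney, Ccl2 was highest (397 ± 84.1 FPKM, mean ± SD, n = 3), followed by Ccl12 (245 ± 138), Ccl7 (113 ± 16.4), Ccr2 (84.0 ± 29.1) and Ccl8 (9.34 ± 2.09). Ccl2 stood above Ccl12 and Ccl12 above Ccl7 within each kidney library, but the ranges of Ccl2 and Ccl12, and of Ccl7 and Ccr2, overlapped across libraries. In spleen and marrow, Ccl2 (135 ± 6.83 FPKM) again stood first, followed by Ccr2 (67.6 ± 5.18), Ccl12 (1.49 ± 1.22) and Ccl7 (0.662 ± 0.823). The ranges of Ccl12 and Ccl7 overlapped there, and Ccl8 was listed at 0.

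The mixture of ligand transcripts therefore differed between the groups. Ccl2 made up 59.6%, 47.0% and 51.8% of the summed ligand FPKM in kidney replicates 7, 8 and 22, against 96.9%, 99.3% and 99.2% in spleen and marrow replicates 2, 24 and 26. Ccl12 made up 30.6 ± 8.07% in kidney and 1.05 ± 0.810% in spleen and marrow (SD, n = 3 libraries each). Ccl7 made up 15.3 ± 2.16% in kidney and 0.464 ± 0.558% in spleen and marrow, and Ccl8 at most 1.92% in any library. Counted without length, Ccl2 took 63.0% and Ccl12 19.2% of the ligand counts in kidney.

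**Figure D3:**
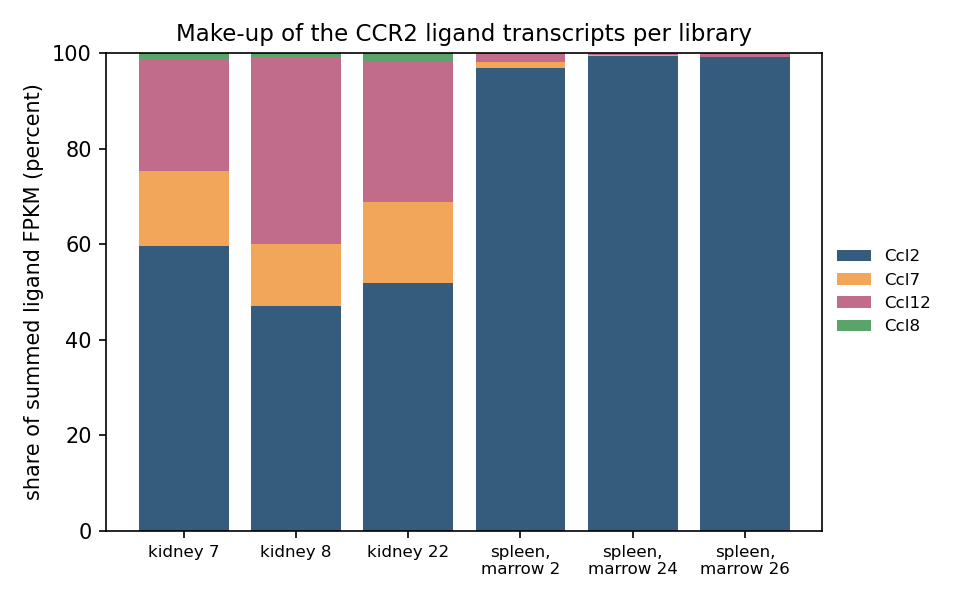
Share of each ligand in the summed FPKM of Ccl2, Ccl7, Ccl12 and Ccl8 (vertical axis, percent), 1 bar per library. Ccl2 makes up 47.0% to 59.6% in the kidney libraries on the left and 96.9% to 99.3% in the spleen and marrow libraries on the right.

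Within libraries the proportions to Ccl2 differed between the groups. These ratios restate the levels given above, so they are no separate observation. Ccl7 had 24.7, 26.9 and 29.8 counts per 100 Ccl2 counts in kidney replicates 7, 8 and 22, against 1.19, 0.297 and 0.0527 in spleen and marrow replicates 2, 24 and 26. Ccl12 had 20.01, 42.4 and 30.8 in kidney, against 1.14, 0.297 and 0.0527 in spleen and marrow. Ccr2 ran the other way, with 206, 112 and 131 counts per 100 Ccl2 counts in kidney, against 294, 379 and 346 in spleen and marrow. The groups did not overlap in any of 4 such ratios, Ccl8 included. In CPM, every kidney library lay above every spleen and marrow library for 19.2% of tested genes, and below for 18.8%. How many genes separate the groups as a ratio to Ccl2 was not tested. In a two-sided exact permutation test each ratio gave p = 0.1, also after adjustment over the 4. With 3 libraries against 3, that exact permutation test cannot go below p = 0.1. Summed ligand FPKM was 5.67, 13.3 and 10.3 times that of Ccr2 in kidney replicates 7, 8 and 22, against 2.37, 1.82 and 1.96 times in spleen and marrow replicates 2, 24 and 26.

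**Figure D4:**
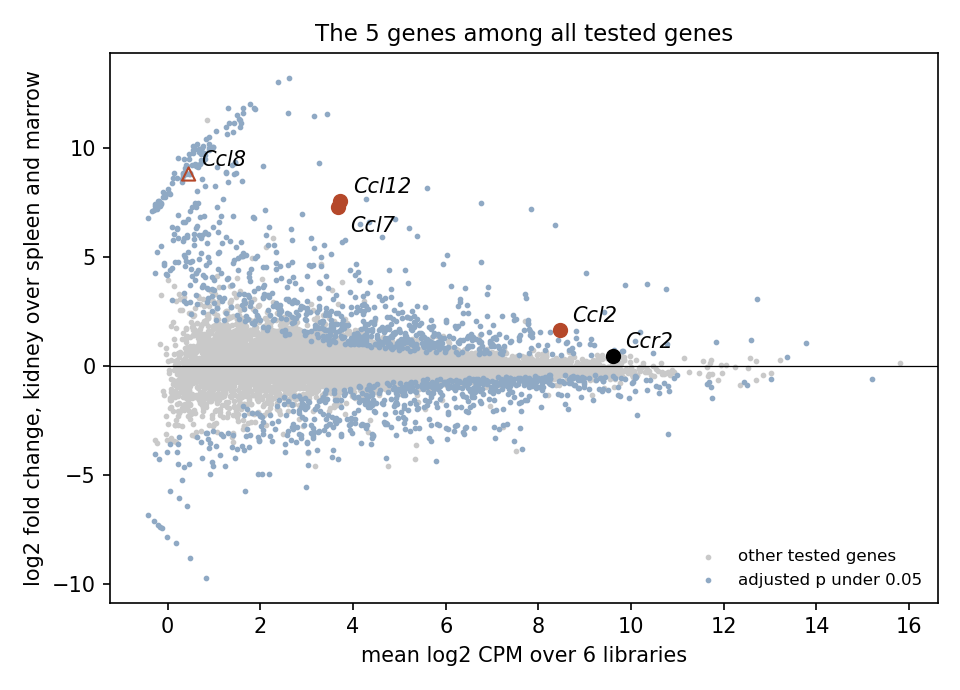
Log2 fold change of kidney over spleen and marrow (vertical axis) against mean log2 CPM over the 6 libraries (horizontal axis) for 10626 tested genes, with called genes in blue. Called ligands are marked in red and Ccr2 in black, at a log2 fold change of 0.45, and the open triangle of Ccl8 is a fitted value against a group with no count, which is no bound.

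Markers of other cell types moved with some of these values, and their part in the results was not tested. The 10 endothelial markers summed to 26.4, 869 and 13.2 CPM in kidney replicates 7, 8 and 22, against 11.2, 4.92 and 7.18 CPM in spleen and marrow, where Tek and Ehd3 had no count. Kidney replicate 8, with the highest endothelial sum, also held the most Ccl2 and Ccl12 in CPM, but not the most Ccl7 or Ccl8. In FPKM it held the most Ccl7 as well, at 132 FPKM against 104 FPKM in each of kidney replicates 7 and 22. Without kidney replicate 8 the log2 fold changes of Ccl2 and Ccl12 were 1.59 and 7.21, both still called. The 10 tubule markers summed to 177, 60.3 and 463 CPM in kidney replicates 7, 8 and 22, against at most 1.09 CPM in spleen and marrow, where Lrp2, Umod, Slc12a1, Aqp2 and Slc22a6 had no count. Fibroblast and mural markers summed to 17.1, 65.1 and 15.3 CPM in kidney, against 13.3, 12.04 and 13.8 CPM in spleen and marrow. Neutrophil markers summed to 1104, 4384 and 43830 CPM in kidney, against 24550, 29430 and 30700 CPM in spleen and marrow. Kidney replicate 22, with the highest tubule and neutrophil sums of its group, held the most Ccl8 in CPM and in FPKM. It held the most Ccl7 only in CPM, at 190 CPM against 183 CPM in kidney replicate 8. Without kidney replicate 22 all 4 ligands stayed called. Macrophage markers summed to 7171, 7666 and 6680 CPM in kidney, against 1174, 1267 and 1347 CPM in spleen and marrow.

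Other CC chemokine genes were followed as 2 lists. Of 7 inflammatory chemokines that act mainly on other receptors, such as CCR1 and CCR3, 6 were tested and 2 rose. Over all tested genes, 7.83% were called higher. Ccl24 (eotaxin-2), which attracts eosinophils, had 32.6, 42.2 and 98.1 CPM in kidney, against 1.72, 1.37 and 0.857 CPM in spleen and marrow. In edgeR it rose by 5.43 ± 0.54 on the log2 scale (SE; adjusted p = 0.00114). Ccl5 (RANTES) had 78.6, 171 and 96.3 CPM in kidney, against 7.35, 22.6 and 21.9 CPM in spleen and marrow, and rose by 2.74 ± 0.47 on the log2 scale (SE; edgeR adjusted p = 0.00941). Ccl3, Ccl6 and Ccl9, all abundant in both groups, stood at 0.01, 0.21 and -0.15 on that scale and were not called. Ccl4 stood at 2.06 with an edgeR adjusted p of 0.0538. It was called higher by DESeq2, and in edgeR with library size alone, with no filter, or without kidney replicate 7 or 22. Its level was 995 CPM in kidney replicate 8 and 215 and 262 CPM in kidney replicates 7 and 22. Of 9 further CC chemokines with a row, 3 were tested and Ccl17, a ligand of CCR4, rose, from 149 counts in kidney and 1 in spleen and marrow. It had 1.78, 15.8 and 2.64 CPM in kidney replicates 7, 8 and 22, so replicate 8 held most of it. Ccl17 stayed called without kidney replicate 8, at a log2 fold change of 5.28 against 6.93 with it. Leaving out any 1 spleen and marrow library ended its call (adjusted p in edgeR up to 0.0929). Both Ccl24 and Ccl17 passed the filter on low counts only through the kidney libraries, so a fall could not have been seen.

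Among other CC chemokine receptor genes, Ccr1 rose. Ccr1, a neighbour of Ccr2 on chromosome 9 and a receptor for CCL3, CCL5 and CCL7, had 271, 167 and 322 CPM in kidney, against 88.3, 102 and 111 CPM in spleen and marrow. In edgeR the rise was 1.33 ± 0.25 on the log2 scale (SE; adjusted p = 0.0117). Leaving out any 1 of the 3 spleen and marrow libraries ended the call (adjusted p in edgeR up to 0.0737). Whether it differs from the change of Ccr2 was not tested. Atypical receptors bind chemokines without G protein signalling. Of 5 of these, 2 were tested and Ackr3 rose, where 7.83% of all tested genes were called higher. The rise was at least 38.5-fold, from no count in spleen and marrow. Ackr3 passed the filter on low counts only through the kidney libraries, so a fall could not have been seen. Ackr3 had 1.42, 8.97 and 2.06 CPM in kidney replicates 7, 8 and 22, and stayed called without replicate 8. But leaving out any 1 of the spleen and marrow libraries ended its call (adjusted p in edgeR up to 0.0930).

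Among 9 other receptors that guide monocytes, 8 were tested and 4 rose, where 7.83% of all tested genes were called higher. C3ar1, the receptor for the complement fragment C3a, had 176, 142 and 161 CPM in kidney, against 1.61, 1.37 and 2.14 CPM in spleen and marrow. The fractalkine receptor gene Cx3cr1 and the C5a receptor gene C5ar1 rose by 2.45 ± 0.21 and 2.81 ± 0.28 on the log2 scale (SE; edgeR adjusted p = 0.000761 and 0.00109). Cmklr1, the receptor for chemerin, also rose, while Cxcr4, which holds cells in the marrow, stood at -1.05 with an edgeR adjusted p of 0.0635. It was called lower by DESeq2, limma-voom and both limma-trend fits on FPKM, and in edgeR with no filter or without kidney replicate 22.

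**Figure D5:**
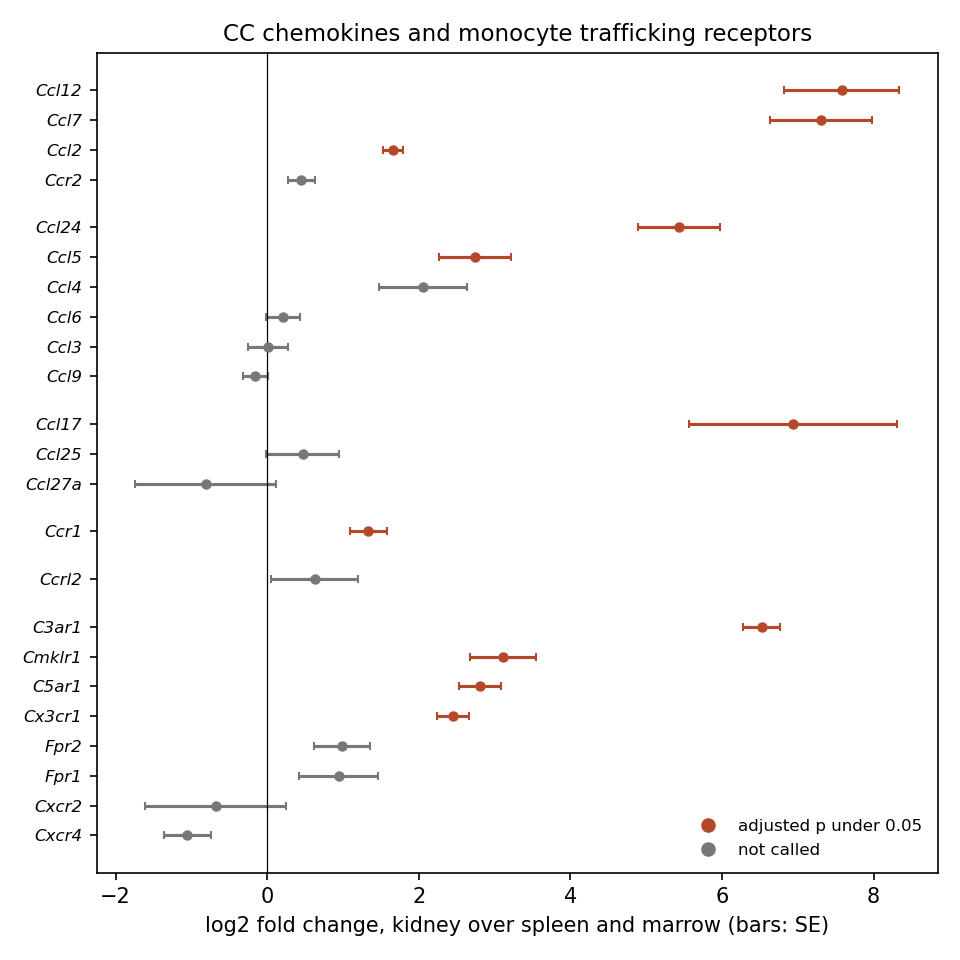
Log2 fold change of kidney over spleen and marrow, with SE, for the CC chemokine and trafficking receptor genes reported here that were tested and had a count in spleen and marrow, in red where the adjusted p was under 0.05. Ccl12 and Ccl7 stand at 7.58 and 7.31, Ccl2 at 1.65 and Ccr2, not called, at 0.45.

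Of 22 genes of CCR2 signalling and desensitisation, all tested, 2 rose and 2 fell, where 13.7% of all tested genes were called in either direction, with a median log2 fold change of -0.05. Arrb2, which encodes an arrestin that uncouples and internalises receptors, had 140, 98.8 and 137 CPM in kidney, against 49.6, 56.6 and 59.3 CPM in spleen and marrow. Its log2 fold change was 1.18 ± 0.19 (SE, edgeR adjusted p = 0.00681). Rgs1, which shortens G protein signals, had 178, 490 and 94.0 CPM in kidney, against 27.4, 30.1 and 34.0 CPM in spleen and marrow. The inhibitory G protein subunit gene Gnai2 fell by 0.50 on the log2 scale and Nup85, whose product FROUNT binds the tail of CCR2, fell by 0.92, with edgeR adjusted p of 0.0330 and 0.0429. The calls of Rgs1, Gnai2 and Nup85 ended when any 1 spleen and marrow library was left out (adjusted p in edgeR up to 0.0775, 0.152 and 0.189), those of Gnai2 and Nup85 also without kidney replicate 8, and that of Gnai2 without kidney replicate 7.

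Of 14 regulators of Ccl2 transcription and mRNA decay, all tested, edgeR called 0 at an adjusted p under 0.05. At an unadjusted p under 0.05, 1 was higher and 0 were lower. DESeq2 called 1 higher and limma-voom called 0. Without kidney replicate 22 edgeR called 2 higher, Jun and Irf1, and without spleen and marrow replicate 2 it called 1, Nfkbiz. The median log2 fold change was 0.09. Cebpb, an abundant myeloid transcription factor gene, had 1895, 1807 and 1660 CPM in kidney, against 2001, 2130 and 2323 CPM in spleen and marrow. Fos, a subunit of AP-1, had 1704, 1918 and 793 CPM in kidney, against 1296, 1529 and 1540 CPM in spleen and marrow, and the groups overlapped.

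Of 4 genes of proteases known to trim monocyte chemoattractants, 3 were tested and 2 rose, where 7.83% of all tested genes were called higher. Both passed the filter on low counts only through the kidney libraries, so a fall could not have been seen. Mmp14, a membrane-bound metalloproteinase, had 45.4, 58.6 and 81.6 CPM in kidney, against 1.15, 0.410 and 1.501 CPM in spleen and marrow. Mmp12, the macrophage elastase, had 4.62, 17.8 and 15.3 CPM in kidney, against 0, 0.274 and 0.214 CPM in spleen and marrow. In edgeR, Mmp14 rose by 5.86 ± 0.45 and Mmp12 by 6.16 ± 0.90 on the log2 scale (SE; adjusted p = 0.000565 and 0.00506).

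The genes whose log2 CPM most resembled each of the 5 over the 6 libraries were also listed, as a description, among 5100 abundant genes. Nearest to Ccr2 were Mkrn1 (Pearson r = 0.993), Fkbp5 (0.989), Tnfrsf1b (0.987) and Chd8 (0.986), none of them called, although Fkbp5 was called by DESeq2, with no filter, and without kidney replicate 8 or 22, and 0.627% of the genes had an r of at least 0.95 with it. Tnfrsf1b, which encodes the TNF receptor TNFR2 of the series' title, had 132, 77.2 and 95.4 CPM in kidney, against 56.7, 71.0 and 70.4 CPM in spleen and marrow. Like Ccr2 it was highest in kidney replicate 7. Its log2 fold change was 0.62 with an edgeR adjusted p of 0.115, which fell below 0.05 without kidney replicate 8. Nearest to Ccl2 were Bcl2a1a, Ms4a7, Cd86 and Bcl2a1b (r between 0.997 and 0.999), of which Bcl2a1a and Bcl2a1b are near-identical copies whose separate counts are uncertain. Nearest to Ccl7 were Tmem37, Skil, Ehd1 and Cxcl16 (0.990 to 0.995), and nearest to Ccl12 were Il1b, Skil, Cxcl16 and Tmem37 (0.990 to 0.992). Nearest to Ccl8 were Arl4c, Atp6v0a1, Ski and Fcgr4 (0.995 to 0.998). An r of at least 0.95 was reached by 2.94% of the genes with Ccl2, 1.84% with Ccl7, 1.92% with Ccl12 and 3.24% with Ccl8. The 6 points fall into the 2 groups, so these values mostly follow the group difference. Il1b, a cytokine that induces Ccl2 in many cells, had 579, 933 and 547 CPM in kidney, against 105, 51.0 and 50.7 CPM in spleen and marrow.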

How the data were processed

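RNA sequencing was compared between sorted kidney cells and cells of spleen with bone marrow, 3 libraries each. Per the labels' protocols, SMART-Seq v4 cDNA from 2 ng of RNA was sheared to about 150 bp. The kit does not mark strand, so reads of overlapping antisense genes cannot be told apart. The deposited values are raw counts per gene symbol, and the authors' FPKM values, scaled for depth and length. The submitters' processing notes list mm9 as the build and, without roles, STAR 2.5, Cufflinks 2.2.1 and bcl2fastq 2.18. Which program counted the reads, and on which annotation, is not given in the sources used here. A small RNA, Mir6236, took 6.96% to 17.8% of the FPKM sum, so FPKM served for levels between genes and as an alternative.

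Counts were filtered with filterByExpr, scaled with TMM and tested two-sided with edgeR 4.0.16 (glmQLFit, glmQLFTest) in R 4.3.3 over all genes, with Benjamini-Hochberg adjustment and a threshold of 0.05. The SE is the log2 fold change divided by the root of F. DESeq2 1.42.0, limma 3.58.1, other scalings and filters and leaving out each library were alternatives. Sequences came from GENCODE M21 and RefSeq, and coding sequences were aligned with Biopython 1.88 (match 1, mismatch -1, gap opening -3, gap extension -1). The members and the gene lists were chosen with earlier results of these data known. Named were the 5 members, in each list the called genes of smallest p (up to 3 a direction) or, with no call, the 2 of highest mean CPM, and for each member the 4 genes of highest Pearson r among those averaging a log2 CPM of 4 or more. The values of Ly6c2, Cd14, S100a8, S100a9, Ccl3, Ccl4, Ccl6, Ccl9, Ccr8, Ccrl2, Cmklr1, Cxcr4, Jun, Irf1 and Nfkbiz are given outside that rule, chosen after they were seen. Some genes of the lists are not reported here. The exact binomial intervals of pooled ratios, and the floors, cover counting error only. The intervals of log2 fold changes were built from the SE of the edgeR fit, so they also include the spread between libraries.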

Additional observations from a re-analysis of the deposited data

How the results depend on the processing

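No paired analysis was possible because the groups share no replicate numbers. Under all 17 alternatives the ligands Ccl2, Ccl7, Ccl8 and Ccl12 stayed called higher in kidney, and Ccr2 stayed higher without a call. Log2 fold changes ranged from 1.52 to 1.73 for Ccl2, 6.21 to 9.04 for Ccl7, 6.60 to 9.26 for Ccl12 and 0.26 to 0.56 for Ccr2. The adjusted p of Ccr2 ranged from 0.0739 (without kidney replicate 8) to 0.583 (limma-trend on log2(FPKM + 0.1)). Against the 832 genes higher and 627 lower in kidney, 322 and 189 passed at 0.01, and 299 and 201 passed with spleen and marrow replicates 24 and 26 summed, a setting added after seeing the data. Leaving out 1 library gave between 260 and 1569 higher and between 179 and 1215 lower, with the most calls without kidney replicate 22. Limma-trend gave 468 higher on log2(FPKM + 1) and 543 on log2(FPKM + 0.1), and DESeq2 gave 995 lower. The median log2 fold change of all tested genes was 0.05, but -0.14 on log2(FPKM + 0.1) and 0.18 with no filter. As shares of ligand counts in place of FPKM, Ccl2 and Ccl12 took 63.0% and 19.2% in kidney. The cause of these shifts was not tested. Below about 1 CPM, levels such as those of Ccl7 and Ccl12 in spleen and marrow rest on a few counts.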

Other observations

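Spleen and marrow replicate 2 held 22 of the 27 Ccl7 counts and 21 of the 26 Ccl12 counts of its group, beside 105 CPM of Il1b against 51.0 and 50.7 CPM in replicates 24 and 26. Il1b was named for its likeness to Ccl12 over these same libraries, so its level here is not an independent observation. Ccl2 had 212 CPM in replicate 2, against 184 and 203 CPM in replicates 24 and 26. Ccrl2, a heptahelical protein related to the chemokine receptors, stood at 97.3 CPM in replicate 2 against 39.8 and 44.4 CPM in replicates 24 and 26.

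In spleen and marrow replicate 26, Ccl12 had 1 count but was listed at 1.01 FPKM, while in replicate 24 it had 4 counts and was listed at 0.581 FPKM. The low ends of the counts and FPKM therefore do not rank these libraries alike.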
